A study of Mus musculus with 4 samples.

Results

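A set of 9 genes of the JAK-STAT5 pathway and its feedback were followed in CD11b+ spleen cells of mice with and without GM-CSF: the kinase gene Jak2, the transcription factor genes Stat5a, Stat5b and Stat3, the feedback inhibitor genes Cish, Socs1, Socs2 and Socs3, and the kinase gene Pim1. They were chosen by name from the pathway, and all 9 were among the 27998 genes of the deposited count table. C57BL/6 mice of 8 to 12 weeks were left in steady state or received 10 µg GM-CSF under the skin once daily for 3 days, and the spleen was taken 24 h after the last injection. CD11b+ splenocytes were sorted and profiled by CITE-seq, which counts RNA molecules by unique molecular identifiers (UMIs) and surface proteins by antibody-derived tags (ADT) in the same cells. There was 1 library per condition, and the number of mice behind each library was not given in the sources used here. Thus no test between conditions was possible, and the condition and the library cannot be told apart.

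GM-CSF binds a receptor whose common beta chain carries the kinase JAK2. JAK2 phosphorylates STAT5A and STAT5B, which enter the nucleus and switch on genes that include Cish, Socs2, Socs1 and Pim1. CIS (from Cish) and the SOCS proteins bind receptors or kinases and dampen the signal, so their transcripts are often read as a short-lived record of recent signaling. STAT3 is the main transducer of G-CSF, IL-6 and IL-10, and Socs3 is its best known feedback inhibitor. PIM1 is a serine/threonine kinase that promotes survival and growth, and its transcript is known to follow cytokine signals and other acute stimuli.

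On the mouse genome GRCm38, with gene limits from GENCODE, Stat5b (chr11:100780731-100850724, minus strand), Stat5a (chr11:100859351-100885169, plus strand) and Stat3 (chr11:100885098-100939540, minus strand) lie side by side. The 3′ ends of Stat5a and Stat3 overlap by 72 bases on opposite strands, and how the counting treated strand was not given in the sources used here. Cish lies at chr9:107296026-107302784 (plus), Socs1 at chr16:10782240-10785536 (minus), Socs2 at chr10:95385362-95417180 (minus), Socs3 at chr11:117966079-117970047 (minus), Pim1 at chr17:29490753-29496112 (plus) and Jak2 at chr19:29251828-29313080 (plus). STAT5 dimers bind the palindrome TTCNNNGAA, which reads the same on both strands. Among RefSeq promoter windows (build GRCm38.p6, from 250 bases before to 50 after an annotated start), 8 of the 9 genes had a window and 2 of them, Cish and Socs3, held the palindrome. The Cish window held 2 copies, at bases 1 and 12 counted from the start, and the Socs3 window held 1 copy, 154 bases before it. Of all 32851 windows of 300 bases, 8.3% held at least 1 copy and 0.457% held 2 or more. A match of letters is a description and not a binding site. The stretches around the copies are shown for Cish and Socs3, the 2 genes whose windows held the palindrome. A link between the copies and the levels of these genes was not tested. Each is given 5′ to 3′ on the strand of its gene, with the TTC and GAA of each copy in capitals.
Cish (chr9:107296654-107296683, plus): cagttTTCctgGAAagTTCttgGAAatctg
Socs3 (chr11:117969507-117969525, minus): cagccTTCttaGAAgggag

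The steady-state library held 4827 cells with 22358903 UMIs and the GM-CSF library 6804 cells with 35007567 UMIs, and 8 cell barcodes occurred in both. Cells carried the authors' cluster names: granulocytes, neutrophils, macrophages, B cells, T cells, a cluster named cDC2-A, activated and progenitor DCs, and 4 clusters of mixed monocytes, macrophages and DCs, called here mixed clusters 1, 2, 4 and 5. Itgam, the gene of CD11b, had UMIs in each of these 12 clusters in both libraries, except in the 39 T cells after GM-CSF, where it was at 0. All 8 neutrophil markers were found in both the granulocyte and the neutrophil cluster, where they summed to 100610 and 350844 CPM (counts per 1000000 UMIs) in steady state and 99169 and 280443 after GM-CSF. The cells named cDC2-A went against that name: 5 of 5 NK cell markers were found at 18085 CPM in steady state, and Xcr1, Clec9a and Siglech were at 0, so only the deposited name is used for them. The libraries also differed in 8 genes that respond to handling of cells (Fos, Fosb, Jun, Junb, Egr1, Ier2, Hspa1a and Hspa1b), which summed to 4811 CPM in steady state and 1392 after GM-CSF. No UMI of Fos, Egr1, Hspa1a or Hspa1b was found in 12.8% of steady-state cells (619 of 4827) and 51.8% of GM-CSF cells (3522 of 6804).

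For each group of cells, the UMIs of a gene were added up and expressed per 1000000 UMIs of the group, with exact Poisson 95% intervals. The ratio of CPM after GM-CSF to CPM in steady state is given with its exact binomial 95% interval in parentheses. These intervals cover counting error only. Ratios were formed in the 6 clusters with at least 100 cells in each library (granulocytes, mixed clusters 1, 2 and 5, neutrophils and progenitor DCs), and the others are given as levels. A gene was counted as past 2-fold when the ratio was at least 2 or at most 0.5 with at least 50 UMIs over both sums. Over whole libraries, Cish stood at 2.01 CPM in steady state and 8.94 after GM-CSF, Socs2 at 2.55 and 3.86, and Jak2 at 67.8 and 89.9. Pim1 stood at 724 and 268 CPM, Socs3 at 145 and 39.7, Stat3 at 252 and 128, and Socs1 at 9.57 and 5.74. Thus Cish was higher in the GM-CSF library, and Socs3, Pim1 and Stat3 were lower. Because the mix of cells also differed between the libraries, values within clusters follow, as in the plot of levels by cell type.

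**Figure D1:**
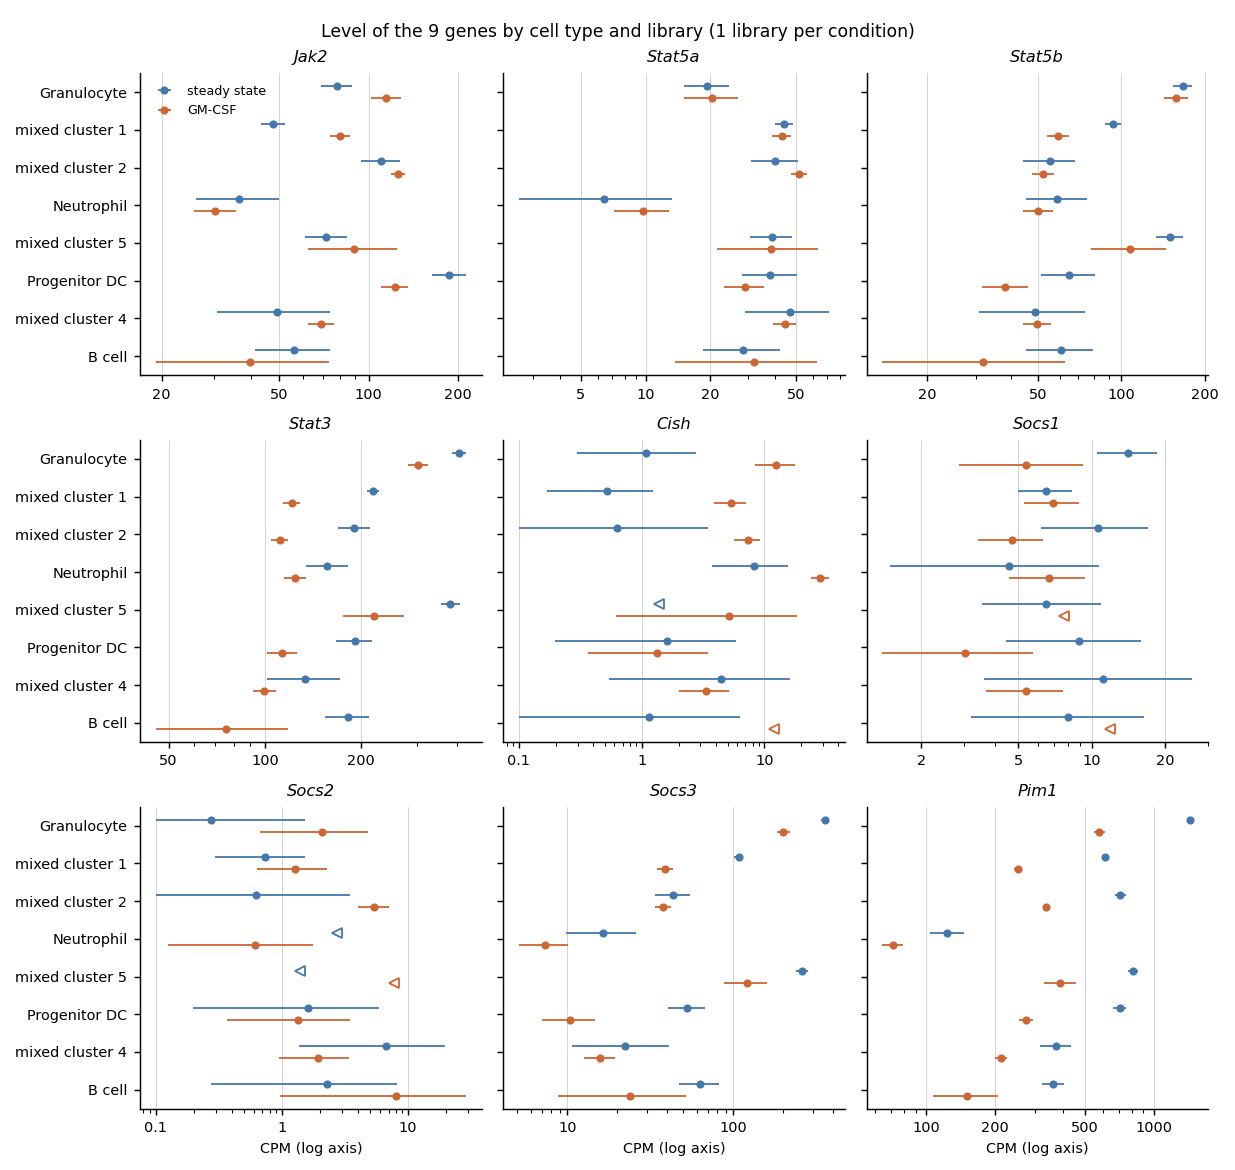
CPM of the 9 genes on log axes, 1 panel per gene, in the 8 deposited cell types with at least 200000 UMIs in both libraries, with blue for steady state and orange for GM-CSF, bars for exact Poisson 95% intervals, and open triangles at the level of 3 counts for groups with 0 UMIs. Cish in granulocytes lies at 1.09 and 12.4 CPM, and Pim1 in the same cells at 1438 and 576 CPM.

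Jak2, the kinase of the GM-CSF receptor, stood higher after GM-CSF in granulocytes and mixed cluster 1 and lower in progenitor DCs. In mixed cluster 1 it stood at 47.7 CPM in steady state and 80.2 after GM-CSF, a ratio of 1.68 (1.49 to 1.90). In granulocytes the values were 78.1 and 115 CPM, a ratio of 1.47 (1.24 to 1.74). The median ratio of all genes in granulocytes was 1.08, the one cluster where it lay more than 0.1 from 0 on the log2 scale, and relative to it the Jak2 ratio was 1.37. Progenitor DCs had the highest Jak2 level of the clusters with over 100 cells in steady state, 188 CPM, and stood at 122 after GM-CSF, a ratio of 0.652 (0.552 to 0.772). The intervals of the granulocyte and mixed cluster 1 ratios lay above 1 and that of progenitor DCs below 1, and none of the 6 clusters passed 2-fold. In mixed cluster 2, mixed cluster 5 and neutrophils the intervals spanned 1, with ratios of 1.14, 1.24 and 0.829. The order of levels after GM-CSF was led by the 20 activated DCs at 269 CPM (181 to 383), followed by mixed cluster 2 (126), progenitor DCs (122) and granulocytes (115), whose intervals overlapped. Neutrophils were lowest, at 30.4 CPM. In the cells without a UMI of the 4 handling genes named above, the granulocyte ratio of Jak2 was 0.734 (0.504 to 1.09), and that of mixed cluster 1 was 1.44 (0.997 to 2.16).

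Stat5a and Stat5b encode the closely related pair of STAT5 proteins, and Stat5a differed little between the libraries. Its ratios ran from 0.759 in progenitor DCs to 1.52 in neutrophils, and each of the 6 intervals spanned 1. In mixed cluster 1, the largest sum, Stat5a stood at 44.0 CPM in steady state and 42.9 after GM-CSF. Stat5b stood lower after GM-CSF in 3 of the 6 clusters: 93.5 and 59.2 CPM in mixed cluster 1 (ratio 0.633, 0.567 to 0.707), 149 and 107 in mixed cluster 5 (ratio 0.720, 0.509 to 0.995), and 64.7 and 38.2 in progenitor DCs (ratio 0.591, 0.440 to 0.797). In granulocytes, where Stat5b was highest in both libraries, it stood at 167 and 157 CPM, and the ratio was 0.946 (0.830 to 1.08). No Stat5b interval lay below 1 in cells without a UMI of the 4 handling genes, with ratios of 0.911 (0.659 to 1.29) in mixed cluster 1, 0.723 in mixed cluster 5 and 1.96 in progenitor DCs, the last from 1 UMI in steady state. Over all cells, neither gene passed 2-fold in any of the 6 clusters. The orders of the pair over cell types were unlike each other. Stat5b was highest in granulocytes, whereas Stat5a was among the lowest there, at 19.3 CPM in steady state and 20.3 after GM-CSF.

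Stat3, the transducer of G-CSF and IL-6 signals, stood lower after GM-CSF in all 6 clusters, with each interval below 1 and none past 2-fold. It stood at 219 CPM in steady state and 121 after GM-CSF in mixed cluster 1, a ratio of 0.555 (0.515 to 0.598). The ratio was 0.579 (0.458 to 0.723) in mixed cluster 5, 0.584 (0.514 to 0.666) in mixed cluster 2 and 0.594 (0.501 to 0.704) in progenitor DCs. It was nearer to 1 in granulocytes (405 and 302 CPM, ratio 0.747, 0.682 to 0.816) and neutrophils (157 and 124 CPM, ratio 0.792, 0.668 to 0.944). Granulocytes were highest in both libraries, with the interval of mixed cluster 5 overlapping theirs in steady state and not after GM-CSF. In cells without a UMI of the 4 handling genes, a comparison added after the data were seen, the 6 Stat3 ratios ran from 0.449 to 0.741, and each interval again lay below 1.

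Cish, the feedback gene most closely tied to STAT5, was sparse in steady state and higher after GM-CSF in the 4 largest clusters. In neutrophils 9 UMIs were counted in steady state and 141 UMIs after GM-CSF, which gave 8.25 and 28.6 CPM and a ratio of 3.46 (1.77 to 7.73). The 141 UMIs lay in 126 of 893 cells. In mixed cluster 1 there were 5 and 46 UMIs (0.525 and 5.31 CPM, ratio 10.1, 4.03 to 32.6). Mixed cluster 2 held 1 UMI in 177 steady-state cells and 68 UMIs in 1471 GM-CSF cells, so that its ratio of 11.7 had a wide interval (2.02 to 467). Granulocytes held 4 and 30 UMIs, 1.09 and 12.4 CPM, and the ratio was 11.4 (4.02 to 44.6), below the limit of 50 UMIs. The intervals of all 4 ratios lay above 1. Progenitor DCs held 2 and 4 UMIs and mixed cluster 5 held 0 and 2, which is too few to set side by side. In cells without a UMI of the 4 handling genes, Cish was at 0 UMIs in steady state in granulocytes, mixed cluster 1 and mixed cluster 2 and at 17, 16 and 20 UMIs after GM-CSF, and its ratio in neutrophils was 2.26 (0.934 to 7.13). Cish was counted as higher past 2-fold in mixed cluster 1, mixed cluster 2 and neutrophils, where 5.54%, 6.53% and 3.98% of all genes tested were past 2-fold in that direction.

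In the order of Cish levels after GM-CSF, neutrophils were first at 28.6 CPM (24.05 to 33.7). T cells at 20.6 (2.49 to 74.3) and cDC2-A cells at 15.9 (0.404 to 88.8) followed from 2 and 1 UMIs, and their intervals overlapped that of neutrophils. Granulocytes at 12.4 (8.39 to 17.7), mixed cluster 2 at 7.30 (5.67 to 9.25) and mixed cluster 1 at 5.31 (3.89 to 7.08) had intervals below that of neutrophils, each overlapping its neighbour. Progenitor DCs were at 1.34 CPM (0.366 to 3.44), an interval below those of mixed clusters 1 and 2. In steady state the highest level was that of T cells, 22.0 CPM (12.6 to 35.7), from 16 UMIs in 10 cells with at most 4 in 1 cell, and the interval of neutrophils overlapped it. Neutrophil markers summed to 2093 and 1143 CPM in mixed cluster 1 and 8739 and 6734 CPM in mixed cluster 2, in steady state and after GM-CSF, and their part in the Cish values was not tested.

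Socs2, the STAT5-dependent inhibitor of growth hormone signaling, had its highest level in activated DCs. The 8 activated DCs of steady state held 35 UMIs, 427 CPM (298 to 594), and the 20 of the GM-CSF library held 45, 403 CPM (294 to 539). No interval of another cell type in the same library reached these. Of the 57 and 135 UMIs of Socs2 in the whole libraries, these 8 and 20 cells thus held 35 and 45. Mixed cluster 2 held 1 UMI in steady state and 50 UMIs after GM-CSF (0.626 and 5.37 CPM, ratio 8.57, 1.47 to 345), and passed 2-fold. Mixed cluster 1 held 7 and 11 UMIs and neutrophils 0 and 3. All 5 UMIs of the granulocytes after GM-CSF came from 1 cell.

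Socs1, an inhibitor induced by interferon as well as STAT5 signals, stood lower after GM-CSF in granulocytes (52 and 13 UMIs, 14.2 and 5.39 CPM, ratio 0.381, 0.190 to 0.709) and in mixed cluster 2 (17 and 44 UMIs, 10.6 and 4.72 CPM, ratio 0.444, 0.248 to 0.828). Mixed cluster 1 differed little, at 6.51 and 6.92 CPM, with a ratio of 1.06 (0.733 to 1.54). The other 3 clusters held fewer than 50 UMIs over both libraries. In cells without a UMI of the 4 handling genes, Socs1 was at 0 UMIs in steady state and 5 after GM-CSF in granulocytes. In mixed cluster 2 such cells held 2 and 21 UMIs, a ratio of 0.313 (0.0764 to 2.75). T cells stood at 31.6 CPM in steady state (20.1 to 47.5) and 72.0 after GM-CSF (29.0 to 148, 7 UMIs in 39 cells), both among the highest levels of their library. In granulocytes and mixed cluster 2, 3.23% and 6.64% of all genes were lower past 2-fold, and Pim1 was the only other member of the 9 counted there.

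Socs3, the feedback inhibitor of STAT3-linked receptors, stood lower after GM-CSF in 5 of the 6 clusters with intervals below 1. In granulocytes it stood at 358 CPM in steady state and 199.7 after GM-CSF, a ratio of 0.558 (0.502 to 0.620). In mixed cluster 1 the values were 108 and 38.8 CPM (ratio 0.360, 0.318 to 0.408), and in mixed cluster 5 259 and 120.3 CPM (ratio 0.464, 0.337 to 0.626). Progenitor DCs had the lowest ratio, 0.198 (0.125 to 0.308), from 52.6 and 10.4 CPM. Their neutrophil-marker sum stood at 8756 and 2081 CPM, and without bundle clusters 11, 14 and 15, which carried those markers, the ratio was 0.519 from 19 and 30 UMIs, a comparison added after the data were seen. Mixed cluster 2 was the exception, with 43.2 and 37.7 CPM and a ratio of 0.872 (0.672 to 1.15), which was 1.24 without the same bundle clusters. Neutrophils held 18 and 36 UMIs (16.5 and 7.29 CPM, ratio 0.442, 0.245 to 0.827). The levels spanned a wide range over cell types: granulocytes were highest in both libraries and neutrophils, the other cluster of neutrophil-marker-rich cells, were near the lowest. Socs3 was past 2-fold in mixed clusters 1 and 5, neutrophils and progenitor DCs, where 7.37%, 7.89%, 2.28% and 7.99% of all genes were lower past 2-fold.

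Pim1, the kinase gene that follows many cytokine signals, stood lower after GM-CSF in all 6 clusters, and in 5 of them by more than 2-fold. Granulocytes, highest in both libraries with the small activated DC and cDC2-A clusters overlapping them in 1 each, held 5285 and 1391 UMIs, 1438 and 576 CPM, with a ratio of 0.401 (0.378 to 0.425) or 0.373 relative to the median gene. Mixed cluster 1 stood at 609.5 and 254 CPM (ratio 0.417, 0.397 to 0.438), mixed cluster 2 at 714 and 337 (ratio 0.472, 0.441 to 0.505) and mixed cluster 5 at 811 and 389 (ratio 0.480, 0.404 to 0.566). In progenitor DCs the values were 709.6 and 274 CPM (ratio 0.386, 0.351 to 0.425). Neutrophils were lowest in both libraries, at 124 and 71.5 CPM, and their ratio was 0.578 (0.473 to 0.710). Outside the myeloid clusters, B cells stood at 362 and 151 CPM (323 to 404 and 107 to 208), and T cells at 259 and 154 (223 to 298 and 86.4 to 255), so that the intervals of B cells lay apart and those of T cells overlapped. Over the 6 clusters, 4 values of the 9 genes were past 2-fold higher (Cish in 3 and Socs2 in 1) and 11 past 2-fold lower (Pim1 in 5, Socs3 in 4 and Socs1 in 2). In the clusters where no member was counted as higher, 7.34% of all genes in granulocytes, 2.41% in mixed cluster 5 and 6.11% in progenitor DCs were. When each cell was thinned to 1000 UMIs the 4 became 0, with Cish in neutrophils at a ratio of 5.31 from 1 and 32 UMIs and so under the limit of 50. Without the cells that held a UMI of the 4 handling genes, Pim1 in granulocytes was the one of the 11 lower values still past 2-fold with at least 50 UMIs. Jak2 (0.441) and Stat3 (0.449) in progenitor DCs, from 7 steady-state cells, were lower there without being among the 11. Higher in those cells were Cish in neutrophils (2.26), Stat5b in mixed cluster 2 (2.75) and Pim1 in progenitor DCs (2.93), from 5, 2 and 3 UMIs in steady state and with intervals that spanned 1. The plot of ratios shows these values together.

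**Figure D2:**
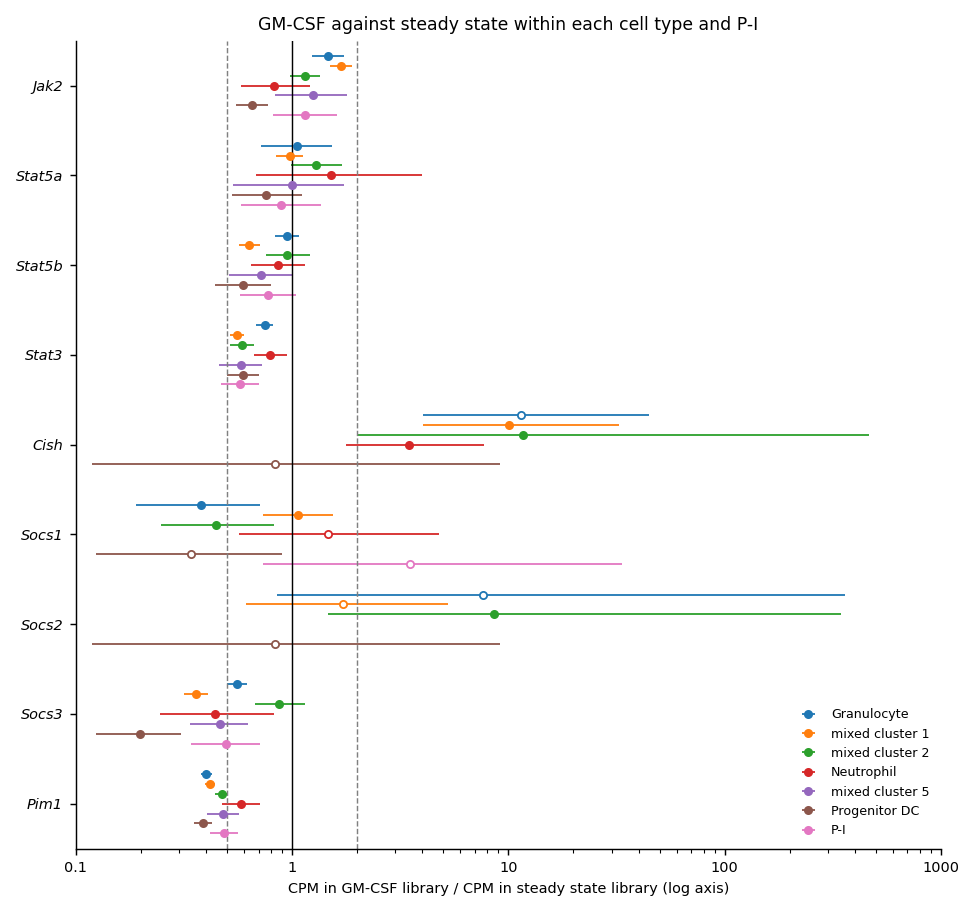
Ratio of CPM after GM-CSF to CPM in steady state on a log axis for the 9 genes in 6 cell types and the subset P-I, with exact 95% intervals, dashed lines at 0.5 and 2, and open symbols for fewer than 50 UMIs over both sums. Cish lies between 3.46 and 11.7 in granulocytes, neutrophils and mixed clusters 1 and 2, Stat3 and Pim1 lie below 1 in each group drawn, and the Pim1 ratios of the 6 cell types run from 0.386 to 0.578.

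Except in granulocytes, the lower Pim1 values of the clusters with a ratio moved with the handling-response genes. The 8 genes summed to 7243 and 3229 CPM in granulocytes, 4284 and 1072 in mixed cluster 1, 6698 and 1464 in progenitor DCs and 3487 and 817 in B cells, in steady state and after GM-CSF. Within the steady-state library, mixed cluster 1 cells with a UMI of Fos, Egr1, Hspa1a or Hspa1b stood at 640.5 CPM of Pim1, and the 99 cells without one at 141 CPM. For Stat3 in the same cells the levels were 219.6 and 205 CPM, and for Socs3 112 and 39.0 CPM. In cells without a UMI of the 4 genes, the Pim1 level of mixed cluster 1 was 141 and 192 CPM in steady state and after GM-CSF, and the ratio of 1.36 (1.09 to 1.73) lay on the other side of 1. It was 1.05 (0.716 to 1.60) in mixed cluster 2, 1.06 (0.724 to 1.58) in mixed cluster 5 and 1.10 (0.707 to 1.80) in neutrophils, from 20, 39 and 56 steady-state cells. Granulocytes were unlike these: in 140 and 902 such cells Pim1 stood at 1356 and 537 CPM, a ratio of 0.396 (0.346 to 0.453). Steady-state granulocytes with a UMI of the 4 genes stood at 1444 CPM (1404 to 1485), an interval that overlapped that of those without one (1214 to 1510). Socs3 without the 4 genes had a ratio of 0.680 (0.514 to 0.910) in granulocytes and 0.687 (0.436 to 1.13) in mixed cluster 1. It was 0.822 (0.425 to 1.64) in mixed cluster 5 and 0.535 in progenitor DCs, the last from 1 UMI in steady state. Mixed cluster 2 and neutrophils held 0 UMIs of Socs3 in such steady-state cells and 61 and 17 after GM-CSF, so no ratio was formed. The part of handling in the differences was not tested.

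**Figure D3:**
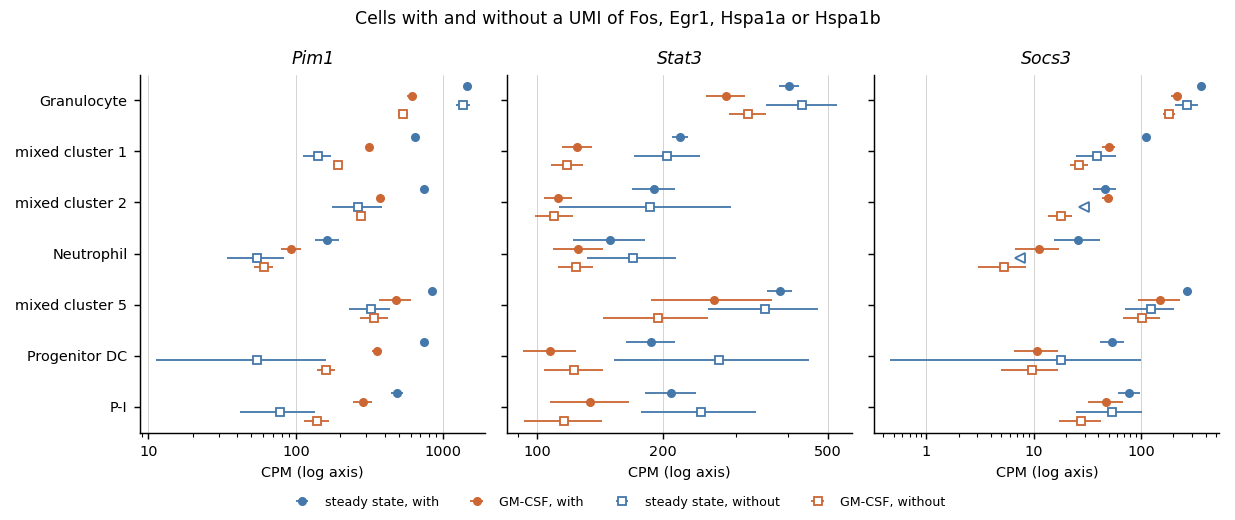
CPM on a log axis of Pim1, Stat3 and Socs3 by group, with each library in its own colour and exact 95% intervals. Filled circles are cells with a UMI of Fos, Egr1, Hspa1a or Hspa1b, and open squares are cells without one. In mixed cluster 1 of steady state, Pim1 lies at 640.5 and 141 CPM in cells with and without such a UMI. Stat3 in the same cells lies at 219.6 and 205 CPM.

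The monocyte, macrophage and DC cells were clustered again by the authors as a bundle of 6075 cells (mixed clusters 1, 2, 4 and 5 and progenitor DCs) in 17 clusters, of which 7 held at least 50 cells in each library. These clusters bear on the mixed clusters, since different bundle clusters made them up in the libraries: mixed cluster 1 was 34.5% bundle cluster 5 in steady state and 38.2% bundle cluster 1 after GM-CSF, and mixed cluster 2 was 49.2% bundle cluster 3 in steady state and 44.1% bundle cluster 0 after GM-CSF. Pim1 and Stat3 stood lower after GM-CSF in 7 of 7 bundle clusters, each interval below 1, with ratios from 0.288 to 0.625 for Pim1 and from 0.498 to 0.705 for Stat3. Stat5b stood lower in 6 of 7, with bundle cluster 3 at 1.05 (0.728 to 1.54). In cells without a UMI of the 4 handling genes, 6 of these clusters held at least 50 UMIs of Pim1 and of Stat3, and 2 held as many of Stat5b. No Stat5b interval lay below 1 in those cells. The 2 clusters with enough UMIs, 2 and 4, had Stat5b ratios of 0.722 (0.422 to 1.30) and 0.716 (0.405 to 1.28), in place of 0.658 and 0.704. In cluster 5, from only 8 UMIs in steady state and 29 after GM-CSF, the Stat5b ratio was 1.01 (0.450 to 2.55) in place of 0.589. Pim1 ratios then ran from 0.796 in cluster 9 to 2.59 in cluster 3, and Stat3 ratios from 0.289 in cluster 9 to 4.73 in cluster 3, the last from 1 UMI in 6 steady-state cells, with 5 of the 6 Stat3 ratios below 1.

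Socs3 and Jak2 did not go one way over the bundle clusters. Socs3 stood lower after GM-CSF in bundle clusters 2, 4, 5 and 11, with ratios of 0.344, 0.443, 0.468 and 0.264. In bundle cluster 3 it stood higher, at 20.6 CPM from 15 UMIs in 88 cells in steady state and 58.9 CPM from 200 UMIs in 512 cells after GM-CSF, a ratio of 2.85 (1.69 to 5.20). The ratios of clusters 6 and 9, 1.12 and 0.586, had intervals that spanned 1. Jak2 stood higher in bundle clusters 2, 3, 5 and 11, most in cluster 5 (42.8 and 80.4 CPM, ratio 1.88, 1.41 to 2.48), and lower in cluster 9, the main part of progenitor DCs (184 and 136 CPM, ratio 0.743, 0.605 to 0.912). The median gene ratio lay over 0.1 below 0 on the log2 scale in clusters 2, 5 and 6, and relative to it the Jak2 ratios were 1.43, 2.01 and 1.56. In bundle cluster 11, 69 of 77 GM-CSF and 85 of 157 steady-state cells were called doublets.

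**Figure D4:**
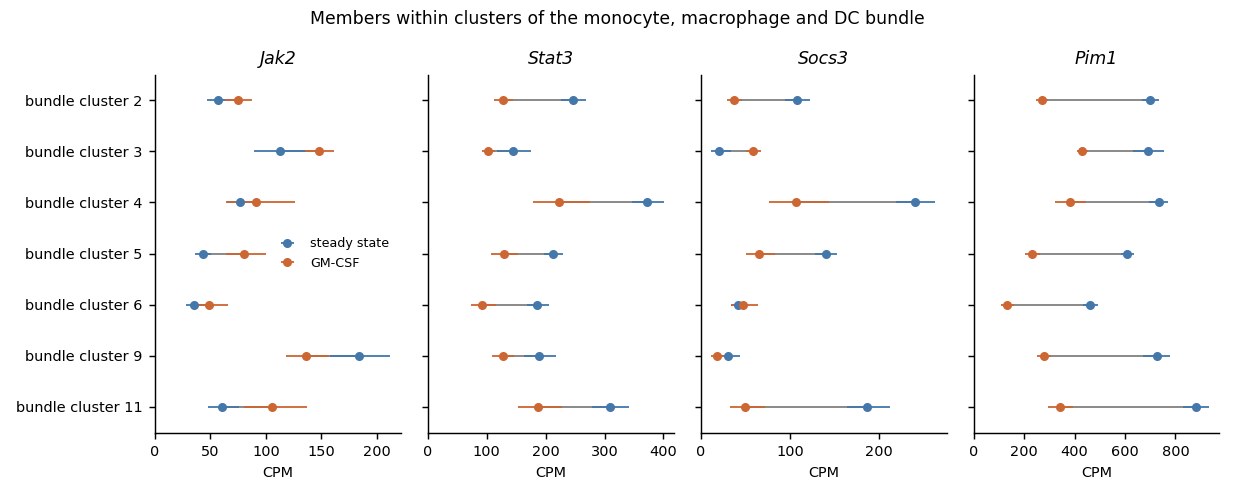
CPM on linear axes of Jak2, Stat3, Socs3 and Pim1 in the 7 bundle clusters with at least 50 cells in each library, with blue for steady state, orange for GM-CSF and bars for exact Poisson 95% intervals. Socs3 in bundle cluster 3 lies at 20.6 and 58.9 CPM, the reverse of its order in bundle cluster 2, at 108 and 37.3 CPM.

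Cish was spread over the bundle clusters of the GM-CSF library. Bundle clusters 0 and 1, which held 668 and 577 GM-CSF cells and few of steady state, stood at 6.91 CPM (4.73 to 9.75) and 6.38 CPM (3.998 to 9.66), and bundle cluster 3 at 7.07 CPM (4.53 to 10.5), so these 3 were indistinguishable. Bundle clusters 7 and 8 stood at 4.21 and 2.73 CPM, with intervals that overlapped them in part. In steady state none of the 7 shared clusters held over 3 UMIs of Cish. Bundle cluster 5 held 3 UMIs in steady state and 8 after GM-CSF (ratio 9.02, 2.16 to 52.8), and cluster 2 held 1 and 8 (ratio 8.78, 1.18 to 390). Cluster 6 held 0 and 4, with an interval of the ratio that began at 1.68. The intervals of the other shared clusters spanned 1. Cluster 3 held 1 and 24 UMIs (ratio 5.14, 0.838 to 211), cluster 9 held 2 and 2 (ratio 0.673, 0.0488 to 9.29), and clusters 4 and 11 each held 0 and 2. All of these were below the limit of 50 UMIs. Socs2 in the GM-CSF library was highest among large bundle clusters in cluster 0, with 35 UMIs and 7.56 CPM (5.26 to 10.5), against 2.03 (0.816 to 4.18) in cluster 1. Socs1 was highest in the small bundle cluster 13, at 49.0 CPM from 29 steady-state cells and 164 CPM from 19 GM-CSF cells.

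The CD115hi cells of the bundle had been gated by their tags into classical monocytes (P-I), non-classical monocytes (P-II), precursors of GM-CSF-induced DCs (P-III) and GM-CSF-induced DCs, or GMiDCs (P-IV). P-I held 139 steady-state and 187 GM-CSF cells, P-III 126 and P-IV 313 GM-CSF cells, and P-II 8 cells in each library. In steady state P-III held 12 cells and P-IV 7, too few for a ratio. In P-I, Stat3 stood at 215 CPM in steady state and 124 after GM-CSF (ratio 0.577, 0.471 to 0.705), Socs3 at 74.1 and 36.6 (ratio 0.493, 0.341 to 0.709) and Pim1 at 424 and 205 (ratio 0.484, 0.416 to 0.562). The last 2 were past 2-fold, beside 7.17% of all genes lower and 5.2% higher, but relative to the median gene their ratios were 0.528 and 0.518, within 2-fold. Jak2 (1.14), Stat5a (0.888) and Stat5b (0.775) had intervals that spanned 1. Cish was at 0 UMIs in steady-state P-I, with an interval up to 3.38 CPM, and at 3 UMIs after GM-CSF, and so a difference was not detectable at this depth. P-I cells also came from different bundle clusters in the libraries, and in the P-I cells without a UMI of the 4 handling genes (28 and 112 cells) the ratio of Pim1 was 1.77 (0.989 to 3.42) and that of Stat3 0.469 (0.320 to 0.697).

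Within the GM-CSF library, which the subsets share, Jak2 stood higher and Socs3 lower in P-IV than in P-I. Jak2 stood at 63.8 CPM in P-I, 77.1 in P-III and 115 in P-IV. The ratio of P-IV to P-I was 1.81 (1.41 to 2.32), that of P-IV to P-III was 1.49 (1.12 to 2.03), and that of P-III to P-I had an interval that spanned 1, 1.21 (0.850 to 1.70). Socs3 stood at 36.6, 25.7 and 14.7 CPM from 51, 19 and 33 UMIs, and its ratio of P-IV to P-I, 0.401 (0.251 to 0.634), was the only one past 2-fold among the 9 genes. The 51 UMIs of P-I lay in 26 cells, with 12 of them in 1 cell, and the interval does not cover such clumping. Pim1 was highest in P-III, with 205, 288 and 238 CPM and a ratio of P-III to P-I of 1.404 (1.17 to 1.68). Stat5a, Stat5b and Stat3 had ratios of P-IV to P-I of 1.35 (0.961 to 1.92), 0.878 (0.669 to 1.16) and 0.825 (0.674 to 1.01). Cish counted 3, 3 and 12 UMIs and Socs2 2, 1 and 11 UMIs in P-I, P-III and P-IV, at Cish levels of 2.15, 4.06 and 5.34 CPM with overlapping intervals. Of all genes, 3.54% were lower and 3.84% higher past 2-fold in P-IV against P-I. The shares were 2.85% and 1.11% in P-III against P-I and 0.965% and 2.32% in P-IV against P-III, where no member was counted.

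**Figure D5:**
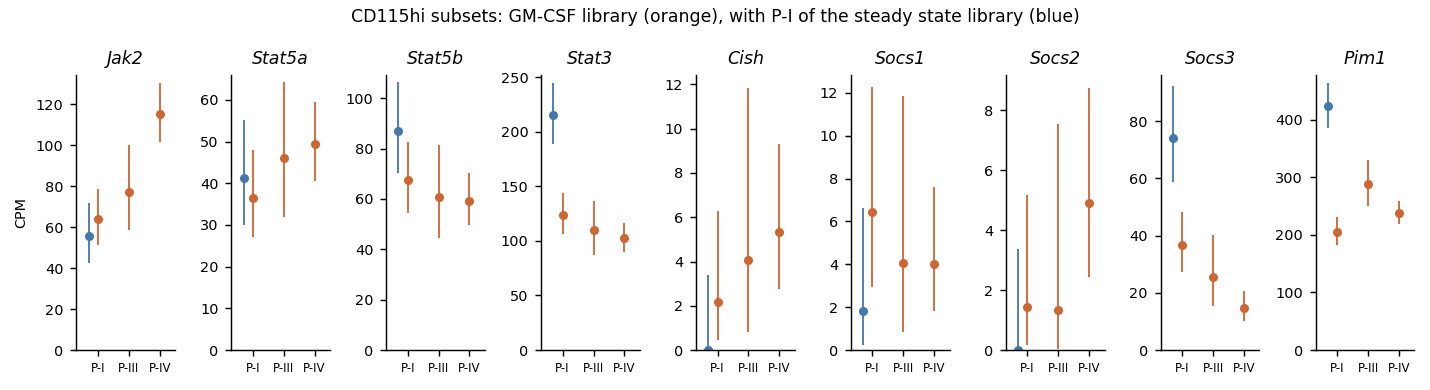
CPM of the 9 genes, 1 panel per gene, in P-I of steady state (blue) and in P-I, P-III and P-IV after GM-CSF (orange), with exact Poisson 95% intervals. Jak2 is highest in P-IV at 115 CPM, and Stat3 is highest in P-I of steady state at 215 CPM.

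Bundle cells also carry a deposited cell cycle phase. Socs3 stood at 127, 97.5 and 32.9 CPM in G1, S and G2/M cells of steady state and 40.3, 26.5 and 14.5 CPM of the GM-CSF library, lowest in G2/M in both. Pim1 stood at 698, 539 and 408 CPM and 306, 248.9 and 231 CPM, and Cish in the GM-CSF library at 6.29, 5.21 and 2.36 CPM. In steady-state cells Cish was at 6, 2 and 2 UMIs, too few for an order. Within G1 alone, Pim1, Stat3 and Socs3 were each lower and Cish and Jak2 each higher in the GM-CSF library, with intervals that did not overlap. The sums by phase pool all bundle clusters, whose mix differed between the libraries. Phase and mix of clusters were thus not separated here, in the G1 values or in the orders over phases.

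The other kinases, STATs and negative regulators of the pathway were followed as a list of 24 genes. In the 6 clusters, 17 to 22 of them had at least 50 UMIs. Past 2-fold higher were 0 to 2, beside 2.41% to 7.34% of all genes. Lower were 0 of 17 in neutrophils, where 2.28% of all genes were, and up to 4 of 21 in progenitor DCs, where 7.99% were. The median ratio of the list ran from 0.751 in progenitor DCs to 1.09 in granulocytes, beside medians of 0.937 to 1.08 over all genes. Socs6 and Tyk2 were higher in mixed cluster 2, with ratios of 3.55 (2.77 to 4.62) and 2.23 (1.80 to 2.80), and Socs5 was higher in mixed cluster 1 (2.11, 1.58 to 2.83). Pim3, a relative of Pim1, was lower in mixed cluster 1 (0.481, 0.393 to 0.587).

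Of 18 receptor genes, 13 to 15 had enough UMIs, and Csf3r, the G-CSF receptor gene, was lower past 2-fold in mixed clusters 1, 2 and 5 and in progenitor DCs, with ratios of 0.207, 0.181, 0.357 and 0.0636. It was also lower in P-I (0.283, 0.231 to 0.345) and in P-IV against P-I (0.0597, 0.0310 to 0.106). Csf3r is also abundant in neutrophils, whose markers are given above for mixed clusters 1 and 2 and progenitor DCs. Csf2rb2 was higher in P-I (2.10, 1.27 to 3.60). Of 15 genes often listed as STAT5 targets, 9 to 14 had enough UMIs, with 0 to 3 higher and 0 to 6 lower in a cluster. Lower were 6 of 14 in mixed cluster 2 and 5 of 12 in progenitor DCs, beside 6.64% and 7.99% of all genes, and 0 of 9 in neutrophils, beside 2.28%. Higher were 3 of 14 in mixed cluster 1, beside 5.54%. The median ratio of these genes ran from 0.534 in progenitor DCs to 1.11 in mixed cluster 5. Id2, an inhibitor of bHLH factors, was higher in granulocytes (3.19), mixed cluster 2 (2.29), mixed cluster 5 (2.46) and P-I (2.38), and Myc in mixed cluster 1 (5.49, 3.45 to 9.12). The survival gene Bcl2 was lower in mixed cluster 1 (0.0880, 0.0581 to 0.129) and mixed cluster 2 (0.136, 0.0872 to 0.212), and the cytokine gene Osm was lower in granulocytes (0.332, 0.287 to 0.381) and mixed cluster 1 (0.131, 0.0943 to 0.178). Ccnd1, a cyclin gene, was higher in P-IV than in P-I (7.99, 3.90 to 19.0) within the GM-CSF library. Between the libraries it was lower past 2-fold after GM-CSF in P-I, mixed cluster 2 and progenitor DCs and higher in mixed cluster 1.

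Genes whose levels followed those of the members were sought over 18 groups of cell type and library, among 9751 genes, by Pearson's r of log2(CPM + 5). The groups share 2 libraries and differ in depth, so r is a description. The nearest to Cish were Paqr7 (0.783), Arl2bp (0.774) and Limk2 (0.767). Nearest to Socs3 were Klf3 (0.944), Nufip2 (0.916) and Samd4b (0.915), and to Pim1 Ptprc (0.891), Klf6 (0.885) and Kpna4 (0.885). Socs2, with 192 UMIs below the minimum of 200 UMIs set for other genes, had Zfp456 (0.825), Cd2 (0.820) and Gstt2 (0.809) nearest.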

How the data were processed

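Sorted CD11b+ splenocytes were profiled on Chromium 3′ v3 chips, 1 library per condition. The authors counted UMIs with Cell Ranger 3.0.2 on mm10 and deposited raw counts per gene and cell, with tables of cluster, cell type, CD115hi subset and cell cycle phase. Cells under 200 or over 5000 genes, or over 15% mitochondrial UMIs, had been left out by them, and they integrated the libraries in Seurat 3.6.0 before clustering. The deposited percent of mitochondrial UMIs was used only for an alternative filter.

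Here counts were summed over cells of a group and library and scaled to CPM. Ratios, exact intervals and the 2-fold rule (at least 50 UMIs) were run on simulated Poisson sums. This is the model the intervals assume, so the simulation checks the code and not the effect of UMIs clumped in single cells. Scrublet, run on each library in scanpy 1.11.5, called 141 and 186 doublets (2.92% and 2.73% of cells), which were kept in the main values. Python 3.11.15, numpy 2.4.6, pandas 2.3.3, scipy 1.17.1 and matplotlib 3.10.9 were used. Not all 9 members are given in every comparison, and values left out are not reported here. Genes of the lists are named only where they passed 2-fold (not all of these are reported here). For Cish, Socs2, Socs3 and Pim1 the 3 genes of the highest r are named. The members and lists were chosen with earlier results of these data known. Alternatives covered scale, cell weights, depth, doublets, mitochondrial UMIs, dominant genes, phase, pooling and thresholds. The tag counts were not used here.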

Additional observations from a re-analysis of the deposited data

Results flagged for a closer look

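Jak2 differed between cell types in its direction, with intervals on either side of 1. Its ratio of GM-CSF to steady state was 0.652 in progenitor DCs and 1.47 and 1.68 in granulocytes and mixed cluster 1. Among bundle clusters it was 0.743 in cluster 9 and 1.31, 1.31, 1.74 and 1.88 in clusters 2, 3, 11 and 5. Socs3 likewise had ratios of 0.264, 0.344, 0.443 and 0.468 in bundle clusters 11, 2, 4 and 5 and 2.85 in cluster 3. With 1 library per condition these differences between cell types were not tested.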

How the results depend on the processing

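The values rest on 1 library per condition, so no setting gives the spread between mice. Depth limited Cish, Socs1 and Socs2, which held few UMIs in most groups. Of 921 values of a member recomputed under another setting, 807 moved by less than their counting interval, 105 moved by more, and 9 that were reported past 2-fold changed direction. Recomputed values without a UMI in the denominator had no ratio and were not among the 921. In cells without a UMI of Fos, Egr1, Hspa1a and Hspa1b, a setting chosen after seeing the data, Pim1 had ratios of 1.36, 1.05, 1.06 and 2.93 in mixed clusters 1, 2 and 5 and progenitor DCs, the last from 3 UMIs in steady state. Under the same setting the Pim1 ratio was 1.77 in P-I, 1.24 in bundle cluster 5 and 1.33 in bundle cluster 6, and Socs3 was at 1.60 in bundle cluster 5. When each cell was thinned to 1000 UMIs, the Socs3 ratio in neutrophils was 1.33 from 1 and 8 UMIs. The count of 4 member values past 2-fold higher over the 6 cell types was 0 after thinning, 2 without called doublets, 1 with at most 5% mitochondrial UMIs, 2 without bundle clusters 11, 14 and 15 (also chosen after seeing the data) and 1 with a minimum of 100 UMIs. Where a ratio could be formed under another setting, the folds stayed above 2, at 8.94 to 15.9 for Cish in mixed cluster 1, 9.99 to 12.8 in mixed cluster 2 and 2.26 to 5.31 in neutrophils and 7.65 to 19.4 for Socs2 in mixed cluster 2, and the values with a ratio that left the count held fewer UMIs than the minimum. The count of 11 lower was 3 in cells without the 4 handling genes, of which Pim1 in granulocytes was one of the 11 and Jak2 (0.441) and Stat3 (0.449) in progenitor DCs were not, 7 without bundle clusters 11, 14 and 15, 7 with a minimum of 100 UMIs and 20 with a fold of 1.5. In P-I the count of 2 lower (Socs3 and Pim1, both just under 0.5) was 0 relative to the median gene and 1 each by the mean over cells, after thinning, without doublets, with at most 5% mitochondrial UMIs, without the 20 most abundant genes, without the handling genes and without bundle clusters 11, 14 and 15. Without the handling genes the 1 was Stat3 (0.469), which was not one of the 2. Which member made up the 1 under the other settings is not reported here. Between subsets the count of 0 higher was 1 in cells without the handling genes and 1 with a fold of 1.5. The count of 1 lower was 0 after thinning, 0 with at most 5% mitochondrial UMIs, 0 in cells without the handling genes, 0 with a minimum of 100 UMIs, 2 with both libraries pooled and 2 with a fold of 1.5. Beyond what the construction of a setting shows, such as fewer cells or UMIs, the cause was not tested. No paired analysis was possible because each condition had 1 library.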

Other observations

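Groups with too few cells in a library for a ratio still held values of the 9 genes. Mixed cluster 4, with 43 steady-state and 595 GM-CSF cells, stood at 372 and 214 CPM of Pim1, 134 and 99.5 CPM of Stat3 and 49.0 and 69.2 CPM of Jak2. Its steady-state cells had NK cell markers summing to 11214 CPM and its GM-CSF cells 0.349 CPM. Activated DCs, 8 and 20 cells, stood at 1196 and 161 CPM of Pim1, 354 and 17.9 CPM of Socs3 and 146 and 269 CPM of Jak2, from 98 and 18, 29 and 2, and 12 and 30 UMIs. Non-classical monocytes (P-II), 8 cells in each library, stood at 989 and 396 CPM of Pim1 (713 to 1337 and 198 to 708) and 471 and 36.0 CPM of Socs3 (288 to 727 and 0.911 to 200.4). Cish and Socs2 were at 0 UMIs in P-II of both libraries.

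Bundle cells outside the CD115hi gates, named CD115- in the deposited table, were the most numerous, 1952 and 3256 cells. Cish stood there at 0.738 and 5.38 CPM (0.354 to 1.36 and 4.46 to 6.43) from 10 and 120 UMIs, Socs2 at 0.960 and 2.73 CPM and Jak2 at 70.8 and 99.4 CPM.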
